A study of Rattus norvegicus with 3 samples.

Results

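The axon guidance genes described here are the ligands and receptors of the semaphorin, ephrin, Slit and netrin systems, taken from all rows whose gene symbol begins with one of their family names. Selection used symbols alone, and 69 of the 30957 rows in each deposited file were members. They comprised 20 semaphorins, 9 plexins, 2 neuropilins, 5 ephrin-A and 3 ephrin-B ligands, 9 EphA and 5 EphB receptors, 3 Slits, 4 Robos, 4 netrins, and the netrin receptors Dcc and Unc5a to Unc5d. Messenger RNA was sequenced from motor cortex of 3 male Sprague-Dawley rats, numbered 12, 24-4 and 33, with 1 library per animal. Every rat had undergone cerebral ischemia and reperfusion and had been given electroacupuncture at GB20, the Fengchi point of the neck, and the labels give a time of 8 weeks without its starting point. Because all 3 belonged to that 1 group, levels and the spread between treated animals could be described, but neither ischemia nor the needling could be compared with its absence. The labels name neither the way ischemia was produced nor the hemisphere sampled.

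Guidance cues steer growing axons by attracting or repelling their tips, and in the adult cortex the same proteins are known for roles at synapses, in vessels and in glia. Semaphorins act through plexins, with neuropilins as co-receptors for most secreted ones, and ephrins, which stay attached to the cell that makes them, act through Eph receptor tyrosine kinases and can signal back into that cell. Slits act through Robo receptors, and netrins attract through Dcc and repel through Unc5 receptors.

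Nearly all of these genes were detected. A mean of at least 1 FPKM, fragments scaled to gene length and to library size, was reached by 65 of 69 members (94.2%) and by 44.4% of all rows, and 25 members (36.2%) had a mean of at least 10. The members below 1 were Epha2, Epha1, Efna4 and Ntn5, and only Ntn5 was listed at 0 in any rat. The FPKM median of the 65 was 8.39, against 10.5 for all rows past the same minimum. Together the members took 0.178% ± 0.0193 of each library's FPKM (SD, n = 3 rats, as for every ± below). Library size was estimated at 15340000 (rat 12), 17250000 (rat 24-4) and 13010000 (rat 33) fragments, so that 1 FPKM of a 1 kb gene rested on 15.34, 17.25 and 13.01 fragments. The exact 95% Poisson intervals of these were 8.65 to 25.2, 10.1 to 27.5 and 6.93 to 22.2 fragments, and cover counting error only. Markers of cortical glutamatergic neurons were present in every rat, with Slc17a7 at 421, 709 and 367 FPKM and Tbr1 at 43.1, 36.9 and 11.7 in rats 12, 24-4 and 33, the order in which values are given throughout.

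Semaphorins were led by Sema7a, a membrane-linked semaphorin with plexin C1 as its receptor, which held 35.2% of the family's summed FPKM on average. Sema7a (chromosome 8, 62723788 to 62745868) had 152, 135 and 63.8 FPKM, a mean of 117 ± 47.0, and stood 526th of all rows. Its value in rat 33 was the lowest, and the gap of rat 33 to the others was wider than the gap between rats 12 and 24-4. The gene of its receptor, Plxnc1, had 5.14, 5.02 and 5.14 FPKM, the narrowest spread of any tested member. On the log2(FPKM + 1) scale Sema7a was above Plxnc1 by 4.64, 4.50 and 3.40. Next came Sema4d, a transmembrane ligand of plexin B1 that oligodendrocytes make, with 27.0, 35.4 and 45.3 FPKM, and Sema6b, a transmembrane ligand of A-type plexins, with 27.3, 40.4 and 19.1. Sema4d was highest in rat 33 and Sema6b in rat 24-4.

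Among the other transmembrane semaphorins, Sema4f (18.5 ± 6.45 FPKM), Sema4a (16.6 ± 3.90), Sema6a (16.0 ± 4.18), Sema6d (14.7 ± 5.38) and Sema5a (11.0 ± 1.91) had means above 10. Sema5b (9.32 ± 3.06), Sema4c (7.90 ± 2.32), Sema4g (7.58 ± 1.55), Sema6c (3.80 ± 0.860) and Sema4b (3.29 ± 0.885) lay below. The 7 secreted class 3 members had means from 2.15 FPKM for Sema3f to 8.70 for Sema3c, so each mean was below that of Sema5b. In single rats Sema3c was above Sema5b in rat 12 (11.5 against 6.10 FPKM) and Sema3b in rat 33 (13.2 against 12.2). Sema3g, a semaphorin of vessels, was almost equal in the 3 rats (4.79, 4.54 and 4.46 FPKM), whereas Sema3a and Sema3b were not, as described further on. Sema3d (3.55 ± 1.31 FPKM) and Sema3e (4.67 ± 0.960), which signals through plexin D1, were in between.

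Plexin genes had the highest family median of all, 3.91 ± 0.15 on the log2(FPKM + 1) scale, and 7 of 9 had a mean FPKM of at least 10. By mean FPKM B-type plexins led, with Plxnb3 at 17.3, 25.1 and 48.1 FPKM, Plxnb2 at 15.2, 17.4 and 33.3 and Plxnb1 at 15.4, 18.8 and 25.2. All 3 were highest in rat 33 and lowest in rat 12, apart from Plxnb2, which was lowest in rat 24-4 after mitochondrial rows were removed and the libraries rescaled. Of the A-type plexins, which transmit class 3 and class 6 semaphorin signals, Plxna1 had 18.9 ± 5.61 FPKM, Plxna2 14.2 ± 4.03, Plxna3 11.3 ± 1.50 and the plexin A4 gene, listed as Plxna4a, 7.55 ± 3.94. In single rats, Plxna2 was the highest plexin in rat 12 (17.8 FPKM) and Plxna1 in rat 24-4 (25.4 FPKM). Plxnd1, a receptor of endothelium and of some neurons, had 14.4, 11.8 and 8.10 FPKM and was lowest in rat 33. The neuropilin genes ran the other way, with Nrp1, which binds Sema3a, at 6.16, 7.72 and 14.9 FPKM and Nrp2, which binds Sema3f, at 2.91, 4.21 and 13.7. Within every rat Nrp1 was above Nrp2, by 0.87, 0.74 and 0.11 on the log2(FPKM + 1) scale.

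**Figure D1:**
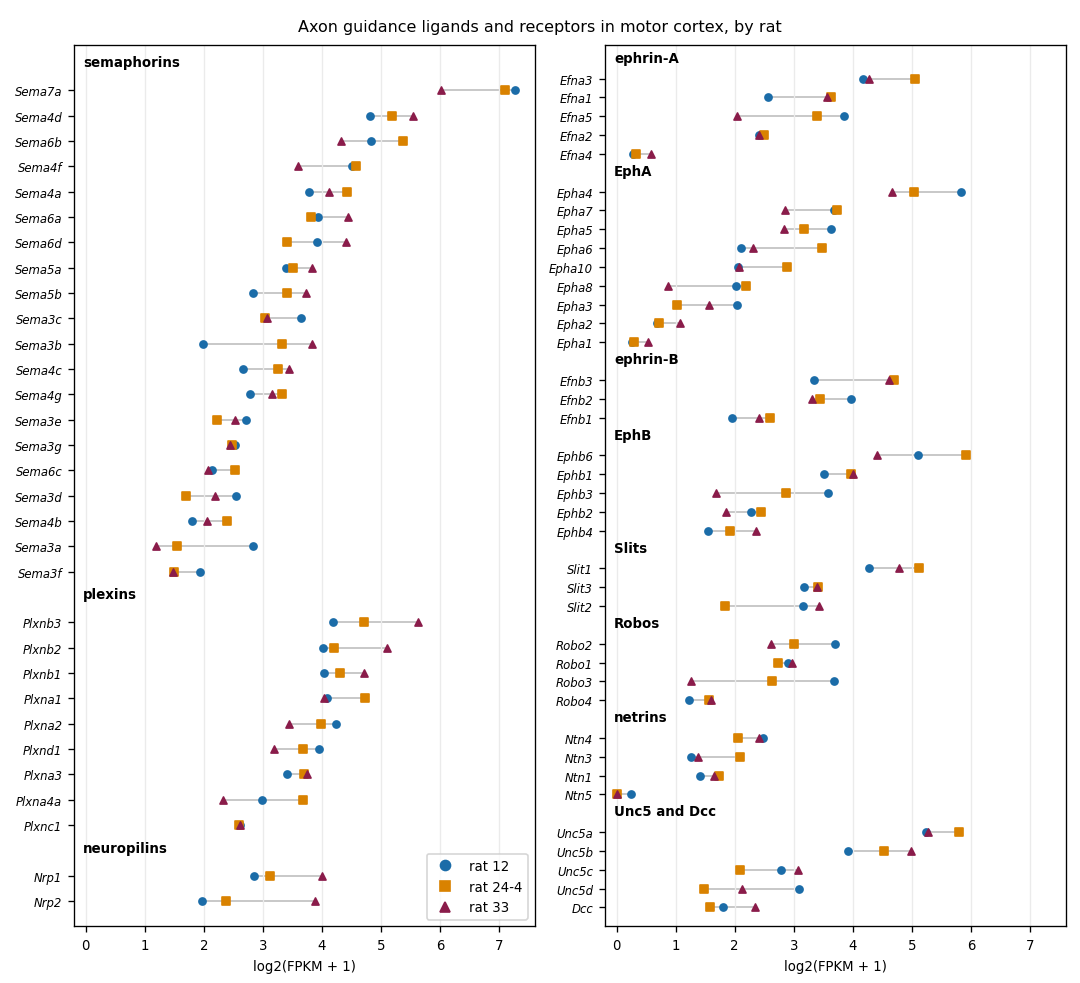
Level of each of the 69 member genes in each rat, on the log2(FPKM + 1) axis, grouped by family and sorted by mean FPKM. Each symbol is 1 library and the grey line joins the lowest and highest; Sema7a lies to the right of all other semaphorins, and Robo3 has the longest line.

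Ephrin-A ligands are anchored in the membrane by lipid and bind EphA receptors. Efna3 was the highest of the 5, with 17.1, 32.1 and 18.4 FPKM, followed by Efna1, known from vessels, with 4.92, 11.4 and 10.8 and Efna5, a cue of topographic maps, with 13.5, 9.48 and 3.11. Efna2 was nearly level at 4.32, 4.63 and 4.31 FPKM. Efna4 was the lowest, at 0.211, 0.258 and 0.497, close to what 3 fragments of a 1 kb gene are worth (0.196, 0.174 and 0.231 FPKM). These 3 fragments are the floor used here, for counting error only.

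Among EphA receptors, Epha4 stood apart: it had 55.6, 31.7 and 24.4 FPKM, a mean of 37.2 ± 16.3. Epha4 binds ephrins of both classes and acts at spines and on corticospinal axons. In every rat it was above Epha7 (10.1 ± 3.40 FPKM) and Epha5 (8.51 ± 2.66), by 1.75 ± 0.42 and 1.96 ± 0.20 on the log2(FPKM + 1) scale. Epha6 had 3.31, 10.2 and 3.94 FPKM, with rat 24-4 highest, and Epha10, which lacks kinase activity, had 3.16, 6.36 and 3.21. Epha8 (2.50 ± 1.46 FPKM) and Epha3 (2.03 ± 1.04) were lower. Epha2 (0.616, 0.652 and 1.10 FPKM) and Epha1 (0.200, 0.232 and 0.449) stayed near or below 1. The Epha1 locus overlaps the end of Zyx by 145 bp on the opposite strand, and Zyx had 13.8, 22.6 and 25.4 FPKM; without known strand use in counting, the Epha1 values are uncertain.

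Ephrin-B ligands span the membrane and can themselves signal. Efnb3 had the highest mean (19.1 ± 8.72 FPKM), then Efnb2, a ligand of arteries and neurons, with 14.7, 9.91 and 8.87 FPKM, and Efnb1 with 2.87, 5.04 and 4.33. Of their receptors Ephb6, which like Epha10 lacks kinase activity, was the highest, at 33.4, 59.6 and 20.2 FPKM. It exceeded Ephb2, a receptor of excitatory synapses with 3.85, 4.46 and 2.61 FPKM, in each rat, by 2.83, 3.47 and 2.55 on the log2(FPKM + 1) scale. Ephb1 had 10.4, 14.6 and 15.0 FPKM, and Ephb4, a receptor of veins, had 1.92, 2.78 and 4.14. The most abundant EphA and EphB transcripts, Epha4 and Ephb6, thus had FPKM means within 1 SD of each other.

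Slit1 was the highest of the Slit genes, which encode large secreted repellents, with 18.4, 33.9 and 26.4 FPKM. Slit3 had 8.05, 9.57 and 9.47 and Slit2 7.90, 2.56 and 9.72. Slit1 was above Slit2 in every rat, by 1.12, 3.29 and 1.35 on the log2(FPKM + 1) scale. Their receptors Robo1 (6.30 ± 0.592 FPKM) and Robo2 (8.02 ± 3.53) could not be ranked, since Robo1 minus Robo2 was -0.79, -0.27 and 0.36 on that scale. Robo4, an endothelial receptor, had the lowest mean of the 4, with 1.33, 1.95 and 2.02 FPKM. In rat 33 Robo3 was lower, at 1.39 FPKM. A further row described as roundabout homolog 4-like (LOC100911068, chromosome 8, 39083327 to 39093277) had 0.338, 0.602 and 0.612 FPKM, and how fragments were divided between it and Robo4 was not tested, which leaves both uncertain.

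Netrins, secreted relatives of laminin, had the lowest family median, 1.58 ± 0.29 on the log2(FPKM + 1) scale. Ntn4, a netrin of basement membranes, had 4.59, 3.17 and 4.29 FPKM, Ntn3 had 1.39, 3.27 and 1.61, and Ntn1, the classic attractant of commissural axons, had 1.65, 2.31 and 2.15. Ntn5 had 0.183 FPKM in rat 12 and was listed at 0 in rats 24-4 and 33. The receptors were far more abundant in part: Unc5a had 36.8, 54.9 and 37.4 FPKM and Unc5b, found on neurons and endothelium, 14.1, 22.0 and 30.7. Unc5c (5.54 ± 2.10 FPKM) and Unc5d (4.23 ± 2.97) were lower. Dcc had 2.47, 1.98 and 4.10 FPKM and was below Unc5a, with Dcc minus Unc5a at -3.44, -4.23 and -2.92 on the log2(FPKM + 1) scale; Ntn1 and Dcc had no common order, with Ntn1 minus Dcc at -0.39, 0.15 and -0.69.

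Set against their receptors, ligands were not uniformly lower or higher. The family median of semaphorins was below that of plexins and neuropilins in 3 of 3 rats, with differences of -1.12, -0.37 and -0.36 (mean -0.62 ± 0.43) on the log2(FPKM + 1) scale. Netrins were below Unc5 receptors and Dcc in 3 of 3 rats, with differences of -1.76, -0.20 and -1.55 (mean -1.17 ± 0.85). By median, ephrin-A ligands were above EphA receptors in 3 of 3 rats, by 0.51, 0.51 and 0.33 (mean 0.45 ± 0.10). Ephrin-B minus EphB (-0.17, 0.58 and 0.94) and Slits minus Robos (-0.12, 0.72 and 1.32) were negative in rat 12 and positive in the other 2 rats. An exact sign-flip test on 3 rats cannot go below p = 0.25, so these differences are given without a test. Of 28 gene pairs compared in the same way, 23 had 1 sign in all 3 rats. The direction between families depended on the summary. By summed FPKM ephrin-A ligands (40.0, 57.8 and 37.1) were below EphA receptors (92.3, 74.0 and 48.2) in each rat. Semaphorins (341, 354 and 283) were above plexins (118, 142 and 161) and neuropilins (9.08, 11.9 and 28.6) together. Netrins stayed below Unc5 receptors and Dcc, ephrin-B was below EphB and Slits were above Robos in each rat.

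Single ligands and their receptors also differed in either direction. Sema4d was above its receptor gene Plxnb1 by 0.77, 0.88 and 0.82 on the log2(FPKM + 1) scale, the smallest spread of the 28 pairs (mean 0.82 ± 0.05). Sema3a minus Nrp1, the ligand and the co-receptor it binds, was -0.01, -1.57 and -2.81, and Sema3f minus Nrp2 was -0.03, -0.88 and -2.41. Both ligands were thus close to their co-receptor in rat 12 and far below it in rat 33. Sema3e minus Plxnd1 was -1.23, -1.46 and -0.65. Efna5 minus Epha4 was -1.96, -1.64 and -2.62, so this ligand was below its receptor in each rat. Which ephrin-B led differed between rats, with Efnb3 minus Efnb2 at -0.63, 1.25 and 1.3. Slit1 was above Robo2, a receptor of Slits, by 0.59, 2.12 and 2.17.

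**Figure D2:**
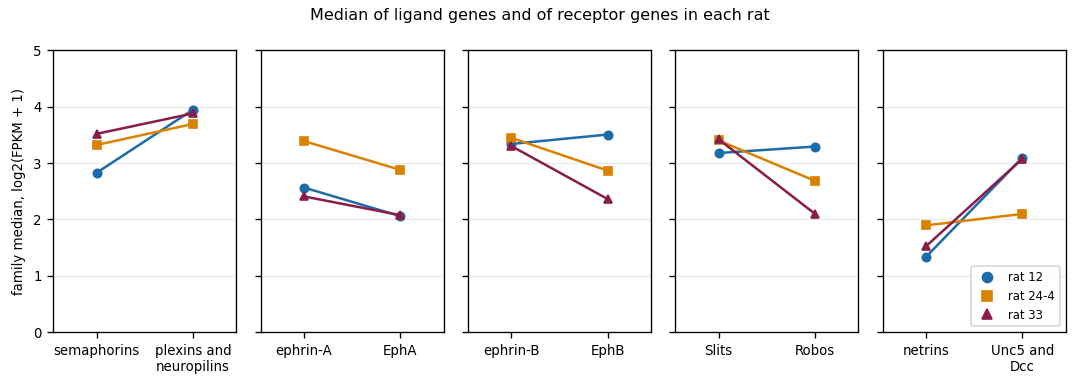
Family medians on the log2(FPKM + 1) axis for the ligands (left end of each line) and receptors (right end) of 5 systems, 1 line per rat. Semaphorin and netrin lines rise to the receptors and ephrin-A lines fall in every rat, while ephrin-B and Slit lines fall in rats 24-4 and 33 only.

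Between the rats, no member passed the test of variability, although some spanned several-fold ranges. An intercept was fitted to log2(FPKM + 1) of each of the 13754 rows with a mean FPKM of at least 1, and limma's residual variance was set against the variance usual for rows of that level. At an adjusted p under 0.05 the test called 0 of 65 members and 14 of all rows (0.102%), and the lowest member value was limma adjusted p = 0.499, for Robo3. With an unadjusted p under 0.05 there were 8 of 65 members (12.3%) and 820 of all rows (5.96%). The highest value was at least 4 times the lowest in 8 members (12.3%), against 5.62% of all rows. The median SD of the members was 0.42 on the log2(FPKM + 1) scale and that of all rows tested 0.32. The counts share 6 members; by fold alone came Unc5d and Epha8 (3.06, 3.59 and 0.837 FPKM), and by p alone Slit2 and Efnb3.

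**Figure D3:**
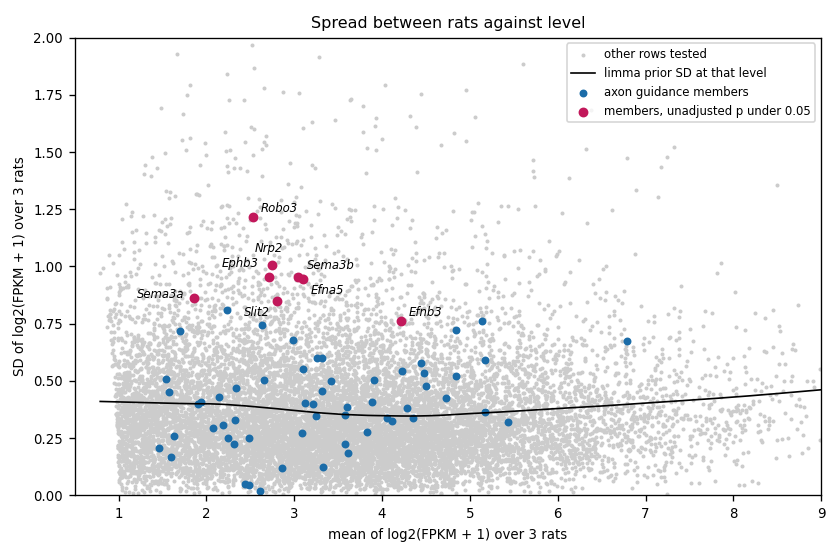
SD over the 3 rats against the mean over the 3 rats, both of log2(FPKM + 1), for the 65 tested members (blue, or red for the 8 with an unadjusted p under 0.05) and the other tested rows (grey); the line is limma's prior SD. Robo3 is the highest of the red points, and 89 grey rows with a mean above 9 or an SD above 2 lie outside the frame.

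Robo3, a divergent Robo receptor known from midline crossing of axons, had the widest spread of any member: 11.9, 5.21 and 1.39 FPKM, 8.53 times higher in rat 12 than in rat 33 (limma adjusted p = 0.499). It lies tail to tail with Robo4 on chromosome 8 (Robo3 at 39892792 to 39907478, Robo4 at 39878955 to 39890942), 1.85 kb apart, and Robo4 did not share its order. The same order, highest in rat 12 and lowest in rat 33, was held by 3 others of the 8. Among all rows tested, 23.8% were highest in rat 12 and 28.9% lowest in rat 33, and the share with both was not counted. Efna5 (chromosome 9, 110057155 to 110225486) had 13.5, 9.48 and 3.11 FPKM (limma adjusted p = 0.686), and Ephb3, a receptor for ephrin-B (chromosome 11, 83527962 to 83546674), had 10.9, 6.29 and 2.22 (limma adjusted p = 0.706). Sema3a, the best known secreted repellent (chromosome 4, 18178656 to 18396035), had 6.09, 1.93 and 1.27 FPKM (limma adjusted p = 0.814); here rat 12 stood alone and rats 24-4 and 33 were close.

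The reverse order, highest in rat 33 and lowest in rat 12, was held by Nrp2 and Sema3b. Among all rows tested, 42.0% were highest in rat 33 and 37.9% lowest in rat 12. Nrp2 (chromosome 9, 69497121 to 69612087) had 2.91, 4.21 and 13.7 FPKM (limma adjusted p = 0.660), with rats 12 and 24-4 close and rat 33 apart. Sema3b, a secreted semaphorin (chromosome 8, 116354073 to 116361343), had 2.96, 9.05 and 13.2 (limma adjusted p = 0.684). Its neighbour Sema3f, 76.4 kb away, had 2.83, 1.83 and 1.78 FPKM and did not follow it. Slit2 (chromosome 14, 66831848 to 67170361) was low in rat 24-4 alone (7.90, 2.56 and 9.72 FPKM, limma adjusted p = 0.799). Efnb3 (chromosome 10, 56161432 to 56167426) was low in rat 12 alone (9.12, 25.0 and 23.3 FPKM, limma adjusted p = 0.810). Just outside the 8 were Ephb6, Unc5d (7.53, 1.79 and 3.35 FPKM) and Plxnb3.

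**Figure D4:**
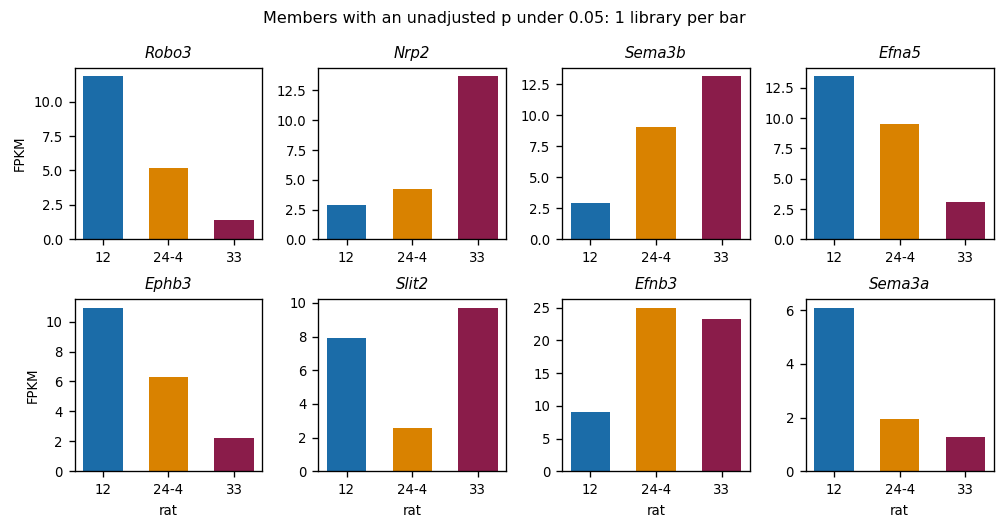
FPKM (linear axis from 0) in rats 12, 24-4 and 33 for the 8 members with an unadjusted p under 0.05; each bar is 1 library, with no error. Robo3, Efna5, Ephb3 and Sema3a step down from rat 12 to rat 33, Nrp2 and Sema3b are highest in rat 33, and Slit2 and Efnb3 are each low in 1 rat.

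Which rat held the highest value differed from the background only in part. Of the 65 members 20 were highest in rat 12 (30.8%, against 23.8% of all rows tested), 24 in rat 24-4 (36.9% against 34.2%) and 21 in rat 33 (32.3% against 42.0%). The lowest value was in rat 12 for 29 (44.6% against 37.9%), in rat 24-4 for 13 (against 33.3%) and in rat 33 for 23 (35.4% against 28.9%). The counts depended on the scaling. Without mitochondrial rows the highest value was in rats 12, 24-4 and 33 for 25, 16 and 24 (against 35.4%, 23.2% and 41.4% of all rows) of the members, and the lowest for 24, 18 and 23 (against 27.0%, 43.4% and 29.6% of all rows). With medians made equal the highest was there for 21, 27 and 17 (against 27.0%, 39.8% and 33.2% of all rows), and the lowest for 26, 11 and 28 (against 33.9%, 29.3% and 36.9% of all rows). Among the 19 tested ephrins and Eph receptors 2 were highest in rat 33, Ephb1 and Ephb4. The untested Epha1, Epha2 and Efna4, with low values, were all highest in rat 33. After mitochondrial rows were removed and the libraries rescaled, Efna1 and Efnb3 were highest in rat 33 too, and with medians made equal Ephb1 was highest in rat 24-4. All 7 tested EphA receptors had their highest value in rat 12 or rat 24-4, under that scaling and with medians made equal as well. The median deviation of the members from the mean of the rats was -0.11, 0.08 and 0.01 on the log2(FPKM + 1) scale, against -0.06, 0.01 and 0.07 for all rows tested, and both sets of values moved with the scaling.

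Markers of cell types moved between the same rats, and their part in the results above was not tested. Of the glutamatergic list 6 of 7 genes were lowest in rat 33, with summed FPKM of 2061, 2160.2 and 1030.1, and of the GABAergic list 6 of 6, with 471, 518 and 264. All 5 reactive astrocyte genes (336, 1077 and 1995 summed FPKM), all 7 of microglia and macrophages (113, 224 and 384) and all 8 of mature oligodendrocytes (5472, 7124 and 12415) were highest in rat 33. Of all rows tested, 42.0% were highest in rat 33 and 28.9% lowest there. No gene of these 5 lists was listed at 0. The fibroblast and meninges list was highest in rat 33 for 5 of its 6 tested genes, or 4 under either other scaling (974, 674 and 1100.0 summed FPKM), with Col1a2 listed at 0 in every rat. Summed FPKM was 137, 239 and 240.1 for oligodendrocyte precursors, 545, 636 and 731 for astrocytes, 104, 82.2 and 189 for mural cells, 139, 128 and 83.5 for striatum and 559, 84.4 and 391 for red blood cells. All 7 choroid plexus genes were highest in rat 33 and lowest in rat 24-4 (3347, 130.0 and 13247 summed FPKM), and 5 had a limma adjusted p under 0.05. Slit2 held that order among the 8 members, and Sema6a, Sema6d, Dcc and Unc5c held it among the others. Robo1 held it too, but was highest in rat 12 under either other scaling. Among all rows tested, 42.0% were highest in rat 33 and 33.3% lowest in rat 24-4, and the share with both was not counted. In bulk tissue, fewer cells of a type and less RNA per cell cannot be told apart.

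**Figure D5:**
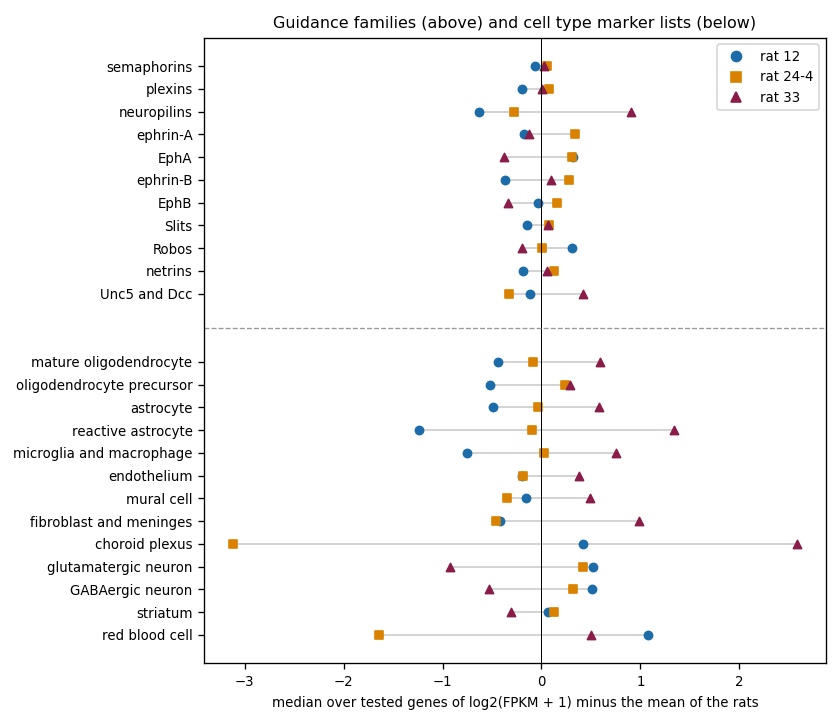
Median deviation of each guidance family (above the dashed line) and of each cell type marker list (below) from the mean of the rats, in log2(FPKM + 1), 1 symbol per rat. EphA, EphB and Robo median deviations lie lowest in rat 33, although Ephb1, Ephb4, Robo1 and Robo4 were highest there. The neuronal and striatum lists lie lowest in rat 33 too. The neuropilin and the Unc5 and Dcc median deviations lie highest in rat 33, although Unc5a and Unc5d were not highest there. So do the lists of mature oligodendrocytes, oligodendrocyte precursors, astrocytes, reactive astrocytes, microglia, endothelium, mural cells, fibroblasts and choroid plexus. Of the astrocyte genes, 3 of 6 were highest in rat 24-4.

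Members known from oligodendrocytes and from vessels were looked at beside the markers of those cells. Sema4d, Plxnb3, Sema6a and Sema5a, linked to oligodendrocytes, were all highest in rat 33, as were 42.0% of all rows tested. Members outside this list, such as Sema3b, Sema5b, Plxnb1 and Plxnb2, were highest there too. The oligodendrocyte-linked members had a median deviation of -0.27, -0.10 and 0.37 on the log2(FPKM + 1) scale. The mature oligodendrocyte markers deviated by -0.44, -0.08 and 0.59. Robo4, Ephb4, Plxnd1, Sema3g, Unc5b, Efna1 and Efnb2, linked to vessels, had no common order: 3 were highest in rat 12, 1 in rat 24-4 and 3 in rat 33. Endothelial markers were highest in rat 33 in 5 of 6 genes, with summed FPKM of 72.0, 95.4 and 95.7.

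Signalling genes and partners of these receptors were measured in 5 further lists, with 73 of 74 genes matched and tested. None had an adjusted p under 0.05 with limma, and 4 (5.48%) had an unadjusted p under 0.05, close to the 5.96% of all rows. For semaphorin signalling Dpysl2, the CRMP2 collapse mediator, had 201 ± 23.9 FPKM and Mical2, an actin oxidase, 124, 119 and 39.4. Mical2 was among the 4. For Eph signalling the highest were Chn1, a Rac inhibitor downstream of Epha4 (215 ± 103 FPKM), and the exchange factor Kalrn (56.7, 49.7 and 20.3). Kalrn and Vav3, another exchange factor (3.53, 2.19 and 11.1 FPKM), were also among the 4. In the Slit list Evl (53.0 ± 13.3 FPKM) and the Slit-binding glypican Gpc1 (37.9 ± 11.4) led, and in the netrin list Maged1 (66.6 ± 18.1) and the kinase Src (40.9 ± 9.25). Neo1, a Dcc relative, had 23.6 ± 3.92 FPKM, above Dcc in every rat. Of actin effectors Cfl1, the filament-severing cofilin, had 820.3 ± 151 FPKM.

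Several members are neighbours in the genome (Rnor_6.0). Efna1, Efna3 and Efna4 lie in a row on chromosome 2 (188588796 to 188660179), with gaps of 41.6 kb and 10.7 kb, and had mean FPKM of 9.05, 22.5 and 0.322. Ephb2 and Epha8 lie 90.9 kb apart on chromosome 5. Sema3e, Sema3a and Sema3d follow each other on chromosome 4 within gaps of 584 kb and 828 kb, and Robo1 and Robo2 are 919 kb apart on chromosome 11.

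Promoter sequence, from RefSeq on assembly GRCr8, was available for 54 of the 69 members. In the 250 bases before the start, GC content had a median of 63.2% for members and 60.4% for the 9459 promoters of tested rows. The letters GGGCGG, the core of the GC box, stood on either strand in 30 of 54 (55.6%), against 59.6% of promoters of tested rows and 32.4% of all 27457. CCAAT stood in 18 (33.3%, against 34.8% and 34.3%). TATAAA stood in 0 of 54, against 6.10% of promoters of tested rows and 13.1% of all. A match is a description of letters, not of a bound site.

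Sema7a, the most abundant member, and the 4 most variable members with a sequence in the table are shown by the 150 bases before their start, 5′ to 3′ on the gene's strand (GRCr8), with GGGCGG or its reverse complement in capitals.
Sema7a (chr8:67244168-67244317, + strand): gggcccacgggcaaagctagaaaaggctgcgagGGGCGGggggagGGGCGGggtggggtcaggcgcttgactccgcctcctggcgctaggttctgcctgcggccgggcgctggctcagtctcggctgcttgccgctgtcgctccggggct
Robo3 (chr8:45340223-45340372, - strand): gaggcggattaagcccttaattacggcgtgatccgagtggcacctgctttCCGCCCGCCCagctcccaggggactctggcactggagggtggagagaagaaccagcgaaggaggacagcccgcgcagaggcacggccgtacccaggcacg
Nrp2 (chr9:71617104-71617253, + strand): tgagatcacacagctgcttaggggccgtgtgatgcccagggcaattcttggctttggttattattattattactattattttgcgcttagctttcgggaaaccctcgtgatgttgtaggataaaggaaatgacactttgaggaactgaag
Ephb3 (chr11:93363776-93363925, - strand): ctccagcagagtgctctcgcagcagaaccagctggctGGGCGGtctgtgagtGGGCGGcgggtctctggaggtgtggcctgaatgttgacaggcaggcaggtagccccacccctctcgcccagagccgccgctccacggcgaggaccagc
Efna5 (chr9:110042188-110042337, - strand): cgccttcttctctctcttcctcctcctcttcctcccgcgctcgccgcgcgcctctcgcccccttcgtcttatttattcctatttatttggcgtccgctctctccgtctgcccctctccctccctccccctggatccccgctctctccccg
Sema7a, Robo3 and Ephb3 each held 2 matches in this stretch, and Nrp2 and Efna5 held 0. The matches of Robo3 overlap. Efna5, Ephb3 and Robo3 shared an order of rats with Sema3a, for which no sequence was available. Any link between this motif and that order was not tested. Nrp2 had the lowest GC content of the 5 stretches, 42.7%, and Sema7a the highest, 73.3%.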

How the data were processed

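Integrity-checked RNA from motor cortex gave mRNA libraries, per the labels' protocols. The deposited values are FPKM, which the authors computed from normalized fragment counts per gene, per the series' design text. The submitters' processing notes name HISAT2 2.0.4, StringTie 1.3.0 and Rnor_6.0. No source used here gives the kind of normalization or the strand use. Since FPKM is a share of the library, abundant transcripts lower all others. Of 30957 rows 11974 were listed at 0 in all rats, including Hprt1 and Rps6, which all cells use; a value of 0 may therefore reflect an estimate that failed. No pair of files held equal values. Library size was estimated at loci of up to 400 bp, where 91.3%, 91.5% and 92.2% of low values came out as whole fragments (tolerance 0.02).

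Values were tested as log2(FPKM + 1), which understates differences of low genes, with limma 3.58.1 (R 4.3.3): an intercept per row, a trended robust prior, and the residual variance over the prior against the F distribution, one-sided, with Benjamini-Hochberg adjustment over 13754 rows and a threshold of 0.05. The script was tested on simulated data. Other steps used Python 3.11.15, pandas 2.3.3 and numpy 2.4.6. P-values ask whether a row spread more between these 3 animals than is usual for rows of its level. With 1 library per rat, effects of animal and of library cannot be told apart. Members, lists, pairs and tests were chosen with earlier results of these data known. Named with values were the 3 highest of each family, members with an unadjusted p under 0.05 or a 0, the 10 of widest SD, the pairs, the cell-linked members, and of each pathway list the 2 highest genes and those with an unadjusted p under 0.05; other members were named with a mean or range, and Neo1 and Epha8 after their values were seen. Some pathway genes that this rule names are not reported here, 1 of the 4 with an unadjusted p under 0.05 among them. Ngef, Serpina3n and Pecam1 were not matched. Alternatives were the pseudocount, the filter, the prior, the scaling, 1 row per symbol, the summary over members and leaving out each rat.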

Additional observations from a re-analysis of the deposited data

How the results depend on the processing

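No member passed an adjusted p under 0.05 with limma under any of the 10 alternatives tried, whereas the count over all rows did depend on them. It was 14 as reported, 23 with log2(FPKM + 0.1), 54 with medians made equal, and 0 with a minimum mean of 0.1 FPKM, with no filter, with a prior that is not robust, or after mitochondrial rows were removed and the libraries rescaled; with a rat left out it ran from 0 (without rat 24-4) to 104 (without rat 12), the prior being estimated anew. The 8 members with an unadjusted p under 0.05 became 5 without a filter (7.25% of 69, against 4.55% of rows) and 13 with medians made equal (of 65, against 6.91%). Robo3 was the only member of the 8 under 0.05 in every alternative. Without rat 12 the unadjusted limma p was 0.392 for Sema3b, 0.863 for Efnb3, 0.598 for Sema3a and 0.0836 for Ephb3; without rat 33 it was 0.431 for Nrp2, 0.377 for Efna5 and 0.180 for Ephb3; without rat 24-4 it was 0.579 for Slit2 and 0.0532 for Sema3a. Removing mitochondrial rows raised the median of tested rows by 0.40, 0.20 and 0.30 (log2) in rats 12, 24-4 and 33. It raised every family median, by more than its SD over rats only for plexins (to 4.23), ephrin-B (to 3.67) and Slits (to 3.64). The median deviation of the members became -0.024, -0.0207 and 0.011, against 0.039, -0.089 and 0.070 for all rows tested. With medians made equal these were -0.083, 0.13 and -0.068 against -0.027, 0.055 and -0.0092, so the sign for the members in rats 24-4 and 33 depended on the scaling. With log2(FPKM + 0.1) every family median fell, by more than its SD over rats only for ephrin-B (to 3.23) and netrins (to 1.05). With means over members the families that moved by more than that SD were Slits (3.62) and Unc5 with Dcc (3.34). With members of a mean FPKM of at least 1 alone, ephrin-A minus EphA was 0.71. No ligand minus receptor difference or gene pair difference shared by all rats changed sign under the alternatives run for it. For gene pairs this was fixed beforehand, since those alternatives keep a pair's order within each rat or leave a rat out. Leaving out a rat could not change a shared sign of ligand minus receptor either. Summed FPKM, by which ephrin-A and semaphorins had the opposite direction, was not among the alternatives. No paired analysis was possible because the labels give 1 group. Depth limits Efna4, Epha1 and Ntn5, whose values lie near the floor of 3 fragments per kb.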
